A study of Mus musculus with 138 samples.

Results

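Tdpoz1, Tdpoz3, Tdpoz4 and Zfp352 are genes of the mouse 2-cell embryo. They were selected as 2-cell markers with lower levels after maternal deletion of Smarca5, so they were chosen on values measured in these embryos, and the maternal deletion comparison is given here as a description without a test. They are 4 of the 25900 genes in the count tables, and all 4 had counts in every one of the 5 embryo groups. Tdpoz1, Tdpoz3 and Tdpoz4 lie in a cluster of related genes on chromosome 3, and Zfp352 lies on chromosome 4.

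In the mouse, the embryo's own genome is switched on in a minor wave in the zygote and a major wave at the 2-cell stage, while RNA stored in the oocyte is degraded. Genes read mainly in that window include many young, multicopy families. The Tdpoz genes are such a family: they encode proteins with a TRAF-like domain and a POZ (BTB) domain, the layout of Spop, an adaptor that brings substrates to a cullin ubiquitin ligase. Zfp352 encodes a zinc-finger protein of the early embryo. SMARCA5, also called SNF2H, is the motor of the ISWI chromatin remodelling complexes that slide nucleosomes.

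Polyadenylated RNA was measured with 1 library per plate well, by the RNA arm of a protocol that reads RNA and chromatin from the same sample. In the first experiment, maternal deletion embryos (Smarca5 +/-, labelled mat KO) came from Smarca5 knockout mothers and wild-type males, and wild-type embryos were Smarca5 +/+. The titles of both groups mention knockout females, so the mothers of the wild-type embryos are not clear from the labels, and each maternal deletion embryo carries a paternal Smarca5 allele. In the second, wild-type embryos were injected as zygotes for TrimAway, in which TRIM21 directs degradation of a protein bound by an injected antibody. That antibody was directed against SMARCA5 or was a control IgG, and other embryos were uninjected. The injected libraries were made at least 24 hours later. The strain, the parental alleles beyond Smarca5 and the Cre used are not given in the sources used here. The labels give a replicate number, which in the first experiment marks embryos pooled from several matings and in the second marks a pool of injected embryos. The submitters call these technical replicates, so p-values measure the spread between single libraries that often share a pool.

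Of 135 embryo libraries, the 116 with at least 100000 counts were used. They were 22 wild-type, 28 maternal deletion, 15 uninjected, 20 IgG and 31 anti-SMARCA5 libraries, with 109007 to 12004992 counts each and a median of 1469197. IgG replicate 2 had no library of that depth, so anti-SMARCA5 replicate 2 had no IgG partner. Levels are in CPM, a gene's counts scaled to the same library total, and a gene was taken as detected above 3 counts, a limit that covers counting error only. Smarca5, the deleted gene, ranged from 2.99 to 349 CPM (median 82.2) in the maternal deletion libraries and from 158 to 839 CPM (median 443) in wild type. Several libraries stood apart from others of the same label. One library labelled maternal deletion (replicate 2, well A04) held the group's highest Smarca5 level, 349 CPM, and its lowest level of the oocyte gene Gdf9, 24.5 CPM. In replicate 2, one library labelled wild type (G05) held that group's lowest Smarca5, 158 CPM, and highest Gdf9, 645 CPM, and another (H05) had 209 and 350 CPM. Wild-type embryos of replicate 1 had 191 to 604 CPM of Smarca5 and 29.8 to 257 CPM of Gdf9. Maternal deletion embryos of replicate 1 had 881 to 7707 CPM of Gdf9. Trim21, the ubiquitin ligase on which TrimAway relies, was above 3 counts in 30 of 31 anti-SMARCA5 libraries (not in replicate 2, well C02), in 0 of 10 IgG libraries of replicate 1 and in 8 of 10 of replicate 3.

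The sequences below show how alike the 3 Tdpoz members are, which bears on how far their counts can be told apart. Each line gives the first 90 coding bases (GENCODE, GRCm38), and capitals mark letters that differ from both other genes. Tdpoz1 is at chr3:93671386-93671475 on the minus strand, Tdpoz3 at chr3:93826020-93826109 and Tdpoz4 at chr3:93796398-93796487 on the plus strand.
Tdpoz1: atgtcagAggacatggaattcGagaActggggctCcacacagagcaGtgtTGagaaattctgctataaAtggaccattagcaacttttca
Tdpoz3: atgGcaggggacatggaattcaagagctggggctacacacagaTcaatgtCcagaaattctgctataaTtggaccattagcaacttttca
Tdpoz4: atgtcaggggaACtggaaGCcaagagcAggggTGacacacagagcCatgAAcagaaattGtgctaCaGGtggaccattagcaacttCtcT
In this stretch, 8 letters were particular to Tdpoz1, 4 to Tdpoz3 and 16 to Tdpoz4. Over the whole coding sequence, each in a single exon, Tdpoz1 and Tdpoz3 were 88.2% identical, Tdpoz1 and Tdpoz4 77.1%, and Tdpoz3 and Tdpoz4 77.0%. Tdpoz1 was closer still, at 98.4%, to Gm9117 and Gm9125, which were identical to each other. Of all 50-base words in the longest coding transcript, 45.1% for Tdpoz1, 66.2% for Tdpoz3 and 41.2% for Tdpoz4 also occurred in transcripts of other genes, against 7.09% for Zfp352. Counts of the Tdpoz genes are therefore uncertain to the extent that reads were shared among copies, and Zfp352 much less so.

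The promoters of Zfp352 and Tdpoz1 are shown because both hold the letters TAATCC, which homeodomain proteins of the OTX type recognise. RefSeq (GRCm38.p6) gave a window of 250 bases before and 50 after the start for 3 of the 4 members, with Tdpoz3 unmatched. The lines give the 250 bases before the start, with TAATCC and TATAAG in capitals. Zfp352 is at chr4:90218570-90218819 on the plus strand and Tdpoz1 at chr3:93676284-93676533 on the minus strand.
Zfp352: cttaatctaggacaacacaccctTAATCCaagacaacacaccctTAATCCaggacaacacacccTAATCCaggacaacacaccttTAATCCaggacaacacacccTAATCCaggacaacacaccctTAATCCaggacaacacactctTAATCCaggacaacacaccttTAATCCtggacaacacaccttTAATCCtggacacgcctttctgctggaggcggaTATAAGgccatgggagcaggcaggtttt
Tdpoz1: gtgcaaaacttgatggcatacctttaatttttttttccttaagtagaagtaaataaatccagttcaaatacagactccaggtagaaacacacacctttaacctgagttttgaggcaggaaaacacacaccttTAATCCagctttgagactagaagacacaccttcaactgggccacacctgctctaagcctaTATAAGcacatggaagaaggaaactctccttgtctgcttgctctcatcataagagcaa
The Zfp352 window held 9 copies of TAATCC, the first 227 and the last 61 bases before the start, in a short tandem repeat. At least 1 copy on either strand was present in 7.06% of all 32851 promoter windows of that length, and Zfp352 was the only 1 with 9 or more. The Tdpoz1 window held 1 copy, 118 bases before the start. The longest word the 2 promoters shared on the same strand was acacaccttTAATCCag, 17 bases long and present in 5 of the 32851 windows. TATAAG, searched after the windows had been read, began 28 bases before the start in Zfp352 and 58 before it in Tdpoz1, and 7.43% of all windows held it. TATAAA and GGCGGG had no match in the windows of Tdpoz1, Tdpoz4 or Zfp352 (13.6% and 35.3% of all windows held them), and CCAAT had 1 match, after the start of Tdpoz1 (37.4% of all). The annotated start of Tdpoz4 is its first coding base, so its window, which held none of the searched letters, may not be a promoter. The counted model of Tdpoz1 (chr3:93669333-93671569) also begins well downstream of the RefSeq start.

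**Figure D1:**
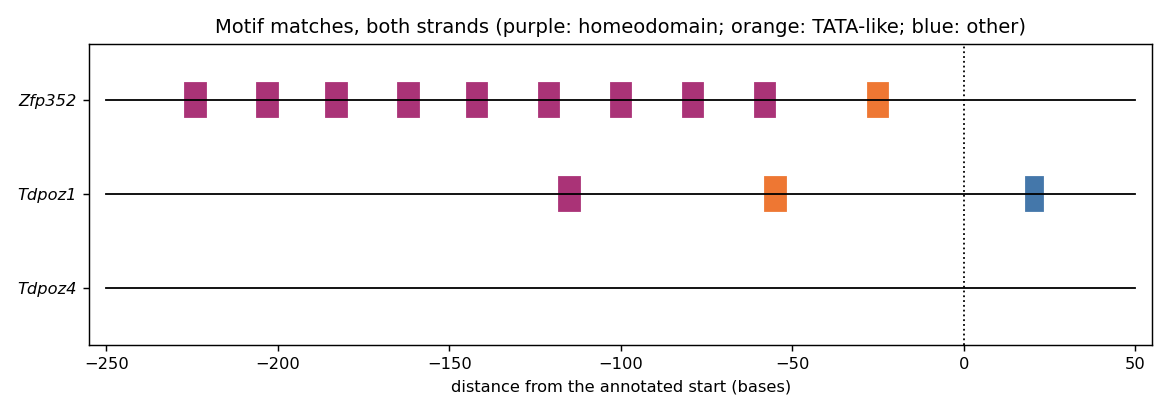
Motif matches in the 300-base windows of Zfp352, Tdpoz1 and Tdpoz4, by distance in bases from the annotated start (dotted line at 0). Zfp352 has 9 evenly spaced homeodomain matches (purple) and Tdpoz1 has 1, each with a TATA-like match (orange) nearer to the start, and Tdpoz4 has none.

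Per kilobase of transcript, the median level in uninjected embryos of replicate 1 was 73.9 CPM per kb for Tdpoz4, 42.7 for Zfp352, 35.5 for Tdpoz1 and 3.87 for Tdpoz3. In replicate 3 it was 31.6, 69.7, 35.6 and 5.31 in the same order. In wild-type embryos of replicate 1 it was 152 for Zfp352, 46.2 for Tdpoz1, 44.2 for Tdpoz4 and 24.4 for Tdpoz3, and in replicate 2 it was 73.4, 18.1, 58.1 and 0 in the same order. Tdpoz3 was the lowest in each, while the order of the others differed between replicates. The annotated transcripts of Tdpoz3 and Tdpoz4 hold almost nothing but coding bases. The effect of this on their values per kb was not tested.

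Maternal deletion embryos had low levels of Tdpoz1, Tdpoz4 and Zfp352, but not all of them did. All 4 members were at or under 3 counts in 11 of 28 maternal deletion embryos and in 0 of 22 wild-type embryos, while 5 of 28 deletion embryos had all 4 above 3 counts. These values chose the members, and nothing is read from their direction: in the fit over all genes, 56.6% of 8518 tested genes were called at an adjusted p below 0.05. Bulk RNA of an embryo cannot tell fewer transcribing cells from less RNA per cell.

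Tdpoz1 had 0 to 138 CPM (median 56.5) in wild type and 0 to 121 CPM (median 0) after maternal deletion. The groups overlapped, but 19 of 28 deletion embryos and only 2 of 22 wild-type embryos were at or under 3 counts. Its log2 fold change was -2.48 (SE 0.72). Tdpoz4 had 0 to 161 CPM (median 60.1) in wild type and 0 to 69.1 CPM (median 0) after deletion, with 20 of 28 deletion embryos at or under 3 counts and a log2 fold change of -2.45 (SE 0.71). Zfp352 was above 3 counts in all 22 wild-type embryos, at 29.8 to 595 CPM (median 218), and had 0 to 364 CPM (median 8.61) after deletion. Below the lowest wild-type embryo lay 17 of the 28 deletion embryos, and the log2 fold change was -1.93 (SE 0.66).

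The replicates differed in how far the groups overlapped. In replicate 1 all 13 deletion embryos were below the lowest of 8 wild-type embryos for Tdpoz1, 12 of 13 for Zfp352, and 11 of 13 each for Tdpoz3 and Tdpoz4. In replicate 2 it was 9 of 15 for Zfp352. The lowest wild-type value of each Tdpoz gene there was 0 CPM, so no deletion embryo could lie below it. For Tdpoz1 the replicate 2 medians were 0.458 CPM after deletion and 42 CPM in wild type, and for Tdpoz4 0 and 64.7 CPM. In that replicate 3 deletion embryos exceeded the wild-type median for Tdpoz1 and 3 for Zfp352. The log2 fold change of Tdpoz1 was -5.03 (SE 0.70) within replicate 1 and -1.12 (SE 0.98) within replicate 2. For Tdpoz4 the values were -2.81 (SE 0.84) and -2.13 (SE 0.99), and for Zfp352 -3.11 (SE 0.74) and -1.05 (SE 0.92). The difference between replicates was not tested here, and replicate number and sequencing lane cannot be told apart in this experiment. The share of all genes whose groups lay as far apart was not computed. The summed level of 16 oocyte genes moved with the groups, from 425 to 9258 CPM (median 2166) in wild type to 962 to 33390 CPM (median 13997) after deletion, and its part in these values was not tested. Without the 3 libraries that stood apart from others of their label (A04, G05 and H05), the log2 fold changes were -2.45, -2.74 and -2.06 for Tdpoz1, Tdpoz4 and Zfp352.

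**Figure D2:**
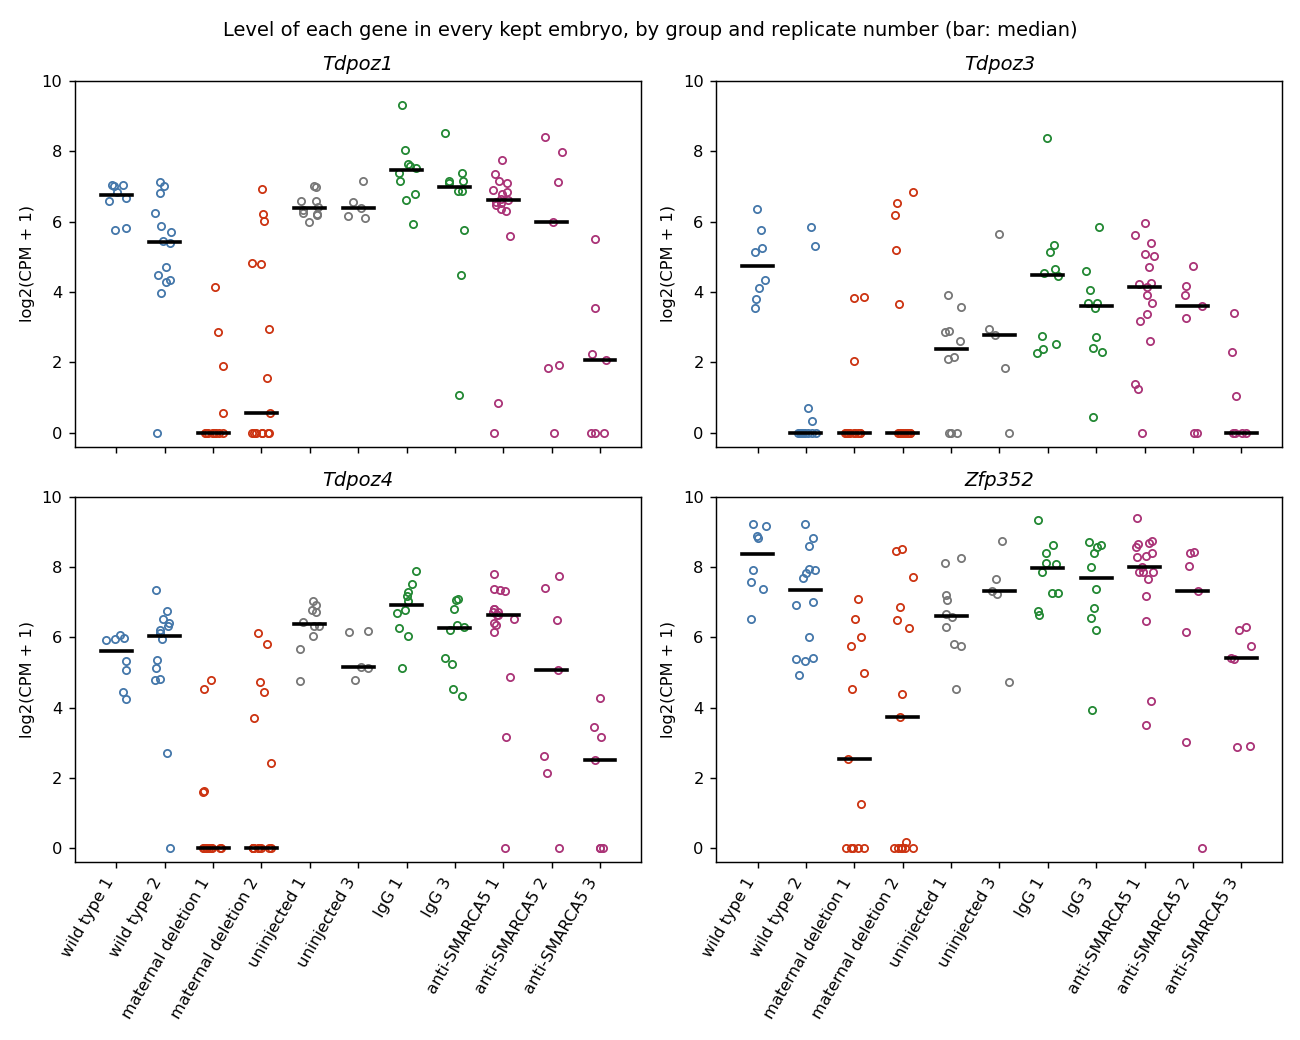
Level of each gene as log2(CPM + 1) in the 116 kept embryos, by group and replicate number, 1 circle per embryo and a bar at the median. For Tdpoz1, Tdpoz4 and Zfp352 the maternal deletion embryos and the anti-SMARCA5 embryos of replicate 3 lie lowest, and 12 of 14 wild-type embryos of replicate 2 have Tdpoz3 at or near 0.

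Tdpoz3 was not lower after maternal deletion in replicate 2. Its counts were too low to pass the filter for that comparison over both replicates, and with no filter its log2 fold change was -0.30 (SE 0.94). In replicate 1 it had 10.7 to 81.8 CPM (median 26.8) in 8 wild-type embryos and 0 to 13.5 CPM (median 0) in 13 deletion embryos. In replicate 2 it had 0 to 56.3 CPM (median 0) in 14 wild-type embryos and 0 to 114 CPM (median 0) in 15 deletion embryos, and 3 deletion embryos exceeded the highest wild-type value.

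The wild-type embryos of replicate 2 had almost no Tdpoz3 although they had its relatives. Leaving out wells G05 and H05, the other 12 wild-type embryos of replicate 2 summed to 5 Tdpoz3 counts in 44954581, beside 2194 Tdpoz1 counts and 3497 Tdpoz4 counts. Wells G05 and H05, whose Smarca5 and Gdf9 stood apart from the other wild-type embryos of replicate 2, held 56.3 and 38.4 CPM of Tdpoz3. The library labelled maternal deletion in well A04 held 0 CPM of Tdpoz3, with 27.4 CPM of Tdpoz1 and 55.4 CPM of Tdpoz4. Tdpoz3 made up 0.0878% of the counts of the 3 Tdpoz members in those 12 wild-type embryos, 15.7% in wild type of replicate 1, 44.8% in replicate 2 deletion embryos without A04, 27.9% in replicate 1 deletion embryos, and 2.61 to 12.9% in the uninjected, IgG and anti-SMARCA5 pools. The 12.9% was IgG replicate 1, which had 5.06% without well A10. The deletion shares also rested on few embryos. Wells E05, B04 and C05 held 679, 599 and 168 of the 1560 Tdpoz3 counts in replicate 2. Wells A09 and H09 held 27 and 26 of the 57 in replicate 1. Tdpoz3 was at or under 3 counts in 9 of 14 replicate 2 deletion embryos without A04 and in 10 of 13 of replicate 1. What parental strain or mating set each pool had is not given in the sources used here, and its part was not tested.

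**Figure D3:**
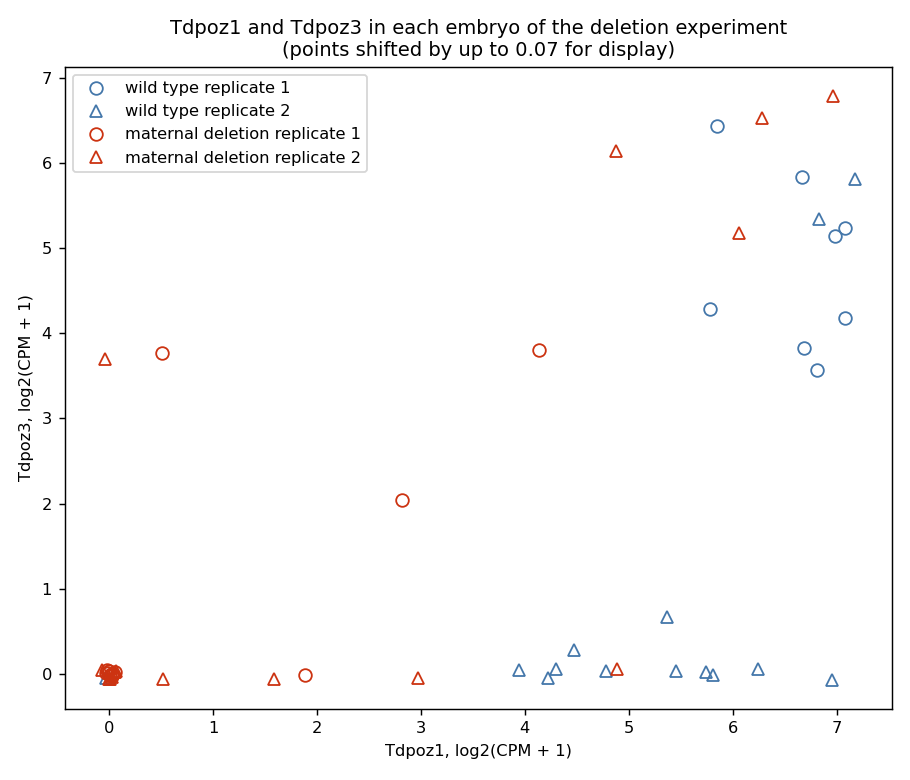
Tdpoz3 against Tdpoz1, each as log2(CPM + 1), in the 50 kept embryos of the deletion experiment, with groups by colour and replicates by symbol. Of the 14 wild-type embryos of replicate 2 (blue triangles), 12 lie along the bottom with Tdpoz3 at 0.63 CPM or less, and 2 lie among the replicate 1 wild-type embryos.

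Between the wild-type replicates, Tdpoz1 was lower in replicate 2. It had 52.9 to 131 CPM (median 107) in 8 embryos of replicate 1 and 0 to 138 CPM (median 42) in 14 of replicate 2, where 9 embryos were below the lowest of replicate 1. The log2 fold change was -1.27 (SE 0.48, edgeR adjusted p = 0.0367), and the call was lost with library totals in place of TMM (-0.90, adjusted p = 0.125). Zfp352 had 91.6 to 595 CPM (median 346) in replicate 1 and 29.8 to 595 CPM (median 167) in replicate 2. Its difference, -1.09 on the log2 scale (SE 0.49, edgeR adjusted p = 0.0751), missed the threshold, and passed it without wells G05 and H05 (-1.54, edgeR adjusted p = 0.00537). Tdpoz4 gave 0.09 (SE 0.51, edgeR adjusted p = 0.906). Thus 1 of 3 members tested was called lower, beside 17.0% of 6993 genes. Tdpoz3 failed the filter, and without it gave -2.32 (SE 1.07, edgeR adjusted p = 0.112). Of a list of 2-cell markers described below, 25 were tested between the wild-type replicates, with 13 called lower and 3 higher. Their median log2 fold change was -1.72, against 0.08 over all tested genes. The sum of 16 oocyte genes had a median of 4689 CPM in replicate 1 and 841 CPM in replicate 2. The part of these in the difference was not tested.

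The rule for the members did not name the TrimAway embryos, but earlier results from them were known when the members were chosen. What the comparison with IgG gave depended on how the pools were handled and, for Tdpoz3 and Tdpoz4, on single libraries. Compared with all IgG embryos, none of the 4 members was called, beside 3.03% of 10447 genes. With the replicate number in the model, Tdpoz1, Tdpoz3 and Tdpoz4 were called lower, beside 13.6% of the same genes called lower. The fit with this term compares groups of the same replicate number. Each injected embryo received a single antibody, so a pool of injected embryos cannot be told apart from its antibody. The effect of leaving out single libraries that stood far from their pool was computed after their levels had been seen.

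Tdpoz1 had 1.08 to 639 CPM (median 142) in IgG and 0 to 341 CPM (median 80.6) in anti-SMARCA5 embryos. The ranges overlapped, with 6 of 31 anti-SMARCA5 embryos below the lowest IgG embryo. The log2 fold change was -0.98 (SE 0.52, edgeR adjusted p = 0.219), and -1.96 (SE 0.61, edgeR adjusted p = 0.0175) with the replicate block. Tdpoz3 had 0.36 to 331 CPM (median 11.8) in IgG and 0 to 61.1 CPM (median 9.46) in anti-SMARCA5 embryos. Its medians were close. The difference was -1.29 on the log2 scale (SE 0.57, edgeR adjusted p = 0.139), or -1.93 (SE 0.61, edgeR adjusted p = 0.0184) with the block. One IgG library of replicate 1, well A10, had 331 CPM where the next of its pool had 39.4 CPM. Without it the difference was -0.12 (SE 0.54, edgeR adjusted p = 0.893), and -0.85 (SE 0.68, edgeR adjusted p = 0.337) with the block, so the call of Tdpoz3 rested on that library. DESeq2 without the block gave -0.06.

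Tdpoz4 had 19.1 to 235 CPM (median 91.8) in IgG and 0 to 222 CPM (median 81.6) in anti-SMARCA5 embryos. Of the latter, 12 of 31 were below every IgG embryo, while 12 were above the IgG median. Its log2 fold change was -0.47 (SE 0.47, edgeR adjusted p = 0.513), or -1.48 (SE 0.55, edgeR adjusted p = 0.041) with the block. That call was lost without anti-SMARCA5 replicate 3 well B05 (-1.44, edgeR adjusted p = 0.0551) or well E05 (-1.32, edgeR adjusted p = 0.0627). The call of Tdpoz1 passed without A10 (-1.68, edgeR adjusted p = 0.0458). Zfp352 had 14.4 to 652 CPM (median 245) in IgG and 0 to 670 CPM (median 201) in anti-SMARCA5 embryos, and was called in neither fit (-0.26, SE 0.40, edgeR adjusted p = 0.689, and -0.79, SE 0.46, edgeR adjusted p = 0.195 with the block). The median log2 fold change over the 4 members was -0.72 without and -1.71 with the block, where that over all tested genes was 0.04 and -0.01. Without A10 the members' medians were -0.24 and -1.16.

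Of the anti-SMARCA5 replicates, the third had the lowest median of all 4 genes. Comparisons within replicates were added after the values had been seen. In replicate 3, 3 of 4 members were called lower, beside 9.54% of 9547 genes. There Tdpoz1, Tdpoz3 and Tdpoz4 were above 3 counts in 3, 2 and 4 of 7 anti-SMARCA5 embryos. In IgG they were above 3 counts in 9, 8 and 10 of 10 embryos. The Tdpoz genes thus passed the filter on low counts through the IgG embryos. A gene kept in this way can hardly be called other than lower, so the count of calls is only a description. Zfp352 was above 3 counts in all embryos of both groups. Tdpoz1 had 1.08 to 364 CPM (median 126) in 10 IgG embryos and 0 to 44.6 CPM (median 3.15) in 7 anti-SMARCA5 embryos, which differed by -3.49 on the log2 scale (SE 1.0, edgeR adjusted p = 0.0263). Without well E05 that call was lost (-3.30, edgeR adjusted p = 0.0546), and without well B05 the difference was -5.48 (edgeR adjusted p = 0.00292). Tdpoz4 did not overlap: it had 19.1 to 136 CPM (median 75.7) in IgG and 0 to 18.5 CPM (median 4.72) in anti-SMARCA5 embryos, a change of -3.46 (SE 0.77, edgeR adjusted p = 0.0109). Zfp352 had 14.4 to 419 CPM (median 210) and 6.36 to 77.8 CPM (median 42), a change of -2.17 (SE 0.56, edgeR adjusted p = 0.0179). No anti-SMARCA5 embryo of replicate 3 exceeded the IgG median for any of the 4 genes. How many of all genes showed this, or did not overlap, was not computed. Tdpoz3 had 0.36 to 56.5 CPM (median 11.2) and 0 to 9.46 CPM (median 0), and at -2.90 (SE 1.02, edgeR adjusted p = 0.0538) it missed the threshold, which it passed without E05 (-4.16, edgeR adjusted p = 0.0314). In this replicate 1576 genes were called in either direction, 924 without E05 and 926 without A03.

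In replicate 1, none of the 4 members was called, beside 0.857% of 10507 genes. Tdpoz1 had 59.5 to 639 CPM (median 175) in 10 IgG and 0 to 214 CPM (median 97.4) in 17 anti-SMARCA5 embryos, or -1.09 on the log2 scale (SE 0.48, edgeR adjusted p = 0.18). Zfp352 medians were 253 and 255 CPM, a change of 0.08 (SE 0.42, edgeR adjusted p = 0.927). Tdpoz3 gave -1.43 (SE 0.69, edgeR adjusted p = 0.21), and 0.36 (SE 0.61, edgeR adjusted p = 0.709) without well A10. Tdpoz4 gave -0.40 (SE 0.42, edgeR adjusted p = 0.574). Without A10 the values of Tdpoz1 and Zfp352 were -0.53 and 0.47, also not called, while 744 genes of all were called in place of 90. Anti-SMARCA5 replicate 2 had medians of 63 CPM for Tdpoz1, 11.2 for Tdpoz3, 32.8 for Tdpoz4 and 158 for Zfp352, with no IgG library to set beside them.

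With all libraries the effect was not shown to differ between replicates 1 and 3. The difference of the effects, replicate 3 minus replicate 1, was -2.37 (SE 1.01, edgeR adjusted p = 0.262) for Tdpoz1 and -1.56 (SE 1.22, edgeR adjusted p = 0.575) for Tdpoz3. It was -3.06 (SE 0.82, edgeR adjusted p = 0.0718) for Tdpoz4 and -2.26 (SE 0.71, edgeR adjusted p = 0.135) for Zfp352. Of the 4 members, 0 passed, beside 0.316% of 12659 genes, although DESeq2 called Tdpoz4 (-3.04, adjusted p = 0.00839). This result also turned on single libraries. Without A10, Tdpoz4 (-3.20, edgeR adjusted p = 0.0432) and Zfp352 (-2.63, edgeR adjusted p = 0.0447) passed, and without B05, Tdpoz1 (-4.42, edgeR adjusted p = 0.0222) and Tdpoz4 (-3.37, edgeR adjusted p = 0.0342) did.

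Other measures moved with the replicate 3 contrast. Smarca5 mRNA had a median of 134 CPM in anti-SMARCA5 and 624 CPM in IgG embryos there, and 387 and 693 CPM in replicate 1. The 16 oocyte genes summed to 3432 to 13450 CPM (median 5824) in anti-SMARCA5 and 1435 to 10370 CPM (median 3788) in IgG embryos of replicate 3, and 2 of 15 tested were called higher, beside 6.97% of all genes. IgG embryos of replicate 1 had no Trim21 counts, while anti-SMARCA5 embryos of that replicate had 266 to 6125 CPM of it. The part of these in the results was not tested.

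**Figure D4:**
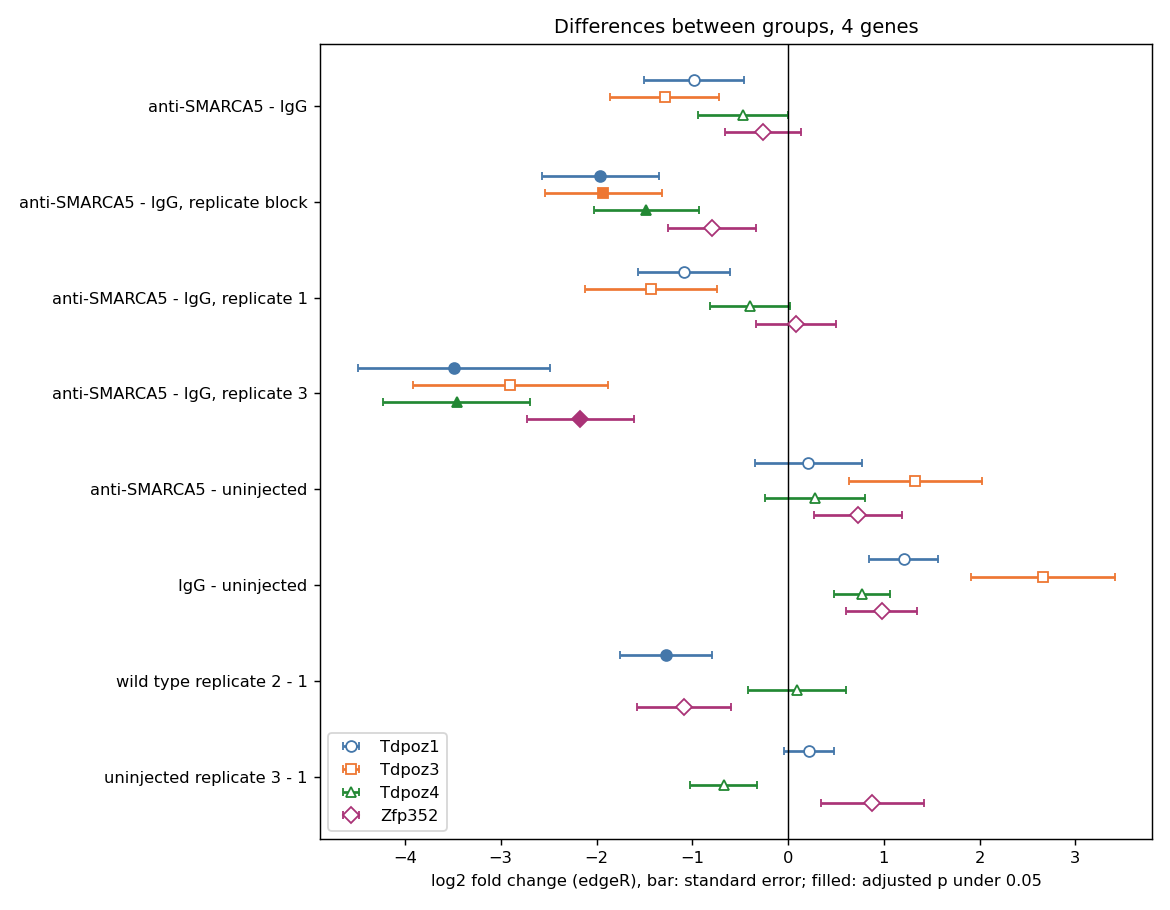
log2 fold changes of the 4 genes from edgeR with standard errors, by comparison, where filled symbols have an adjusted p below 0.05. The filled symbols are 3 genes for anti-SMARCA5 against IgG with the replicate block, 3 within replicate 3, and Tdpoz1 between the wild-type replicates, and Tdpoz3 is missing where it failed the filter on low counts.

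Against uninjected embryos, which share the anti-SMARCA5 libraries with the comparison above, none of the 4 members was called, beside 27.9% of 10750 genes. Uninjected embryos had 62.3 to 143 CPM (median 82.7) of Tdpoz1 and 0 to 48.8 CPM (median 5.1) of Tdpoz3. They had 25.9 to 131 CPM (median 71.1) of Tdpoz4 and 22.1 to 432 CPM (median 133) of Zfp352. Over all pools the groups overlapped for all 4 genes, but the replicates differed. In replicate 3, all 7 anti-SMARCA5 embryos lay below every uninjected embryo for Tdpoz1 and for Tdpoz4. In replicate 1, 10 of 17 lay above every uninjected embryo for Tdpoz3 and 8 of 17 for Zfp352. These differences between replicates were not tested, and the share of all genes that separated as far was not computed. The log2 fold changes were 0.21 (SE 0.56, edgeR adjusted p = 0.79) for Tdpoz1, 1.33 (SE 0.69, edgeR adjusted p = 0.132) for Tdpoz3, 0.28 (SE 0.52, edgeR adjusted p = 0.707) for Tdpoz4 and 0.73 (SE 0.46, edgeR adjusted p = 0.224) for Zfp352. Without replicate 3, Tdpoz3 was called higher (2.24, edgeR adjusted p = 0.0299), as it was without uninjected well E04 alone (1.97, edgeR adjusted p = 0.0362). With the replicate block the values for Tdpoz1 and Tdpoz4 turned to -0.56 and -0.48 (edgeR adjusted p = 0.503 and 0.511).

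IgG embryos had higher medians than uninjected embryos for all 4 members, and none passed after adjustment. For IgG against uninjected embryos, 0 of 4 members and 0% of 9915 genes were called by edgeR, where 1440 genes had an unadjusted p under 0.05 and DESeq2 called 207. The log2 differences were 1.21 (SE 0.36, edgeR adjusted p = 0.161) for Tdpoz1, 2.66 (SE 0.75, edgeR adjusted p = 0.161) for Tdpoz3, 0.77 (SE 0.29, edgeR adjusted p = 0.21) for Tdpoz4 and 0.98 (SE 0.37, edgeR adjusted p = 0.212) for Zfp352. DESeq2 called Tdpoz1 (1.25, adjusted p = 0.0331). Without well A10 the value for Tdpoz3 was 1.44 (edgeR adjusted p = 0.246). Between the uninjected replicates 3 and 1, 0 of 3 members tested were called, beside 0.658% of 10491 genes called by edgeR, which gave 1555 genes an unadjusted p under 0.05. Tdpoz1 gave 0.22 (SE 0.26, edgeR adjusted p = 0.743), Tdpoz4 -0.67 (SE 0.35, edgeR adjusted p = 0.39) and Zfp352 0.88 (SE 0.54, edgeR adjusted p = 0.476).

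Several genes in and beside the Tdpoz cluster were called lower in replicate 3. Apart from the members, 15 genes were considered, those between Tdpoz1 and Tdpoz5 on chromosome 3 and 5 on each side. Among the latter, AC132362.1 and Gm10697 lie at RefSeq Tdpoz2 and Tdpoz7. Gm10696, Gm5286 and Gm4778 lie at RefSeq Spopfm2, Spopfm3 and Spopfm1. The coding sequences of Gm10696 and Gm5286 were 81.0% and 79.2% identical to that of Tdpoz1. Within replicate 3, 7 of the 15 were tested for anti-SMARCA5 against IgG and 4 were called lower, beside 9.54% of all genes. Of these, AC132362.1, Gm5773 and Gm9125 were above 3 counts in 0, 0 and 1 of 7 anti-SMARCA5 embryos. They passed the filter on low counts through the IgG embryos and could hardly be called other than lower. Genes low in both groups were not tested, so the count of calls is only a description. AC132362.1, at the position of RefSeq Tdpoz2, had 0 to 31.9 CPM (median 15.1) in IgG and at most 0.732 CPM in 7 anti-SMARCA5 embryos, none above 3 counts (edgeR adjusted p = 0.00482). Gm5773 had a median of 21.8 CPM in IgG and at most 2.92 CPM in anti-SMARCA5 embryos, again none above 3 counts (edgeR adjusted p = 0.00993). Gm9125 fell by 3.95 on the log2 scale (SE 1.02, edgeR adjusted p = 0.0181), although it shares most of its sequence with Gm9117 and Tdpoz1. Them4, a thioesterase gene beyond the cluster's edge, fell by 2.80 (SE 0.80, edgeR adjusted p = 0.0258). Gm10696 (-3.27, SE 1.17, edgeR adjusted p = 0.0564) and Gm4778 (-0.98, SE 1.02, edgeR adjusted p = 0.492) were tested and not called, and the other 8 genes were not tested. Over all IgG and anti-SMARCA5 embryos 1 of 10 tested was called, Them4, at -1.47 (SE 0.39, edgeR adjusted p = 0.0334), beside 3.03% of all genes, and within replicate 1 it was 0 of 11, beside 0.857%.

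Low values were not limited to the cluster. Of the flanking genes, Tchh, a hair-follicle protein gene, was called lower after maternal deletion (-3.37, SE 0.73, edgeR adjusted p = 0.000127), as was Them4 (-2.77, SE 0.72, edgeR adjusted p = 0.00115), beside 56.6% of all genes called there. Gm4778 was tested there too and not called (-0.99, SE 0.85, edgeR adjusted p = 0.325). In replicate 3 the median of Tchh was 3.24 CPM in anti-SMARCA5 and 28.8 CPM in IgG embryos. Its fitted difference there was 0.56 (SE 0.83, edgeR adjusted p = 0.644), so the median and the fit differed in sign. Against uninjected embryos Tchh was called higher with anti-SMARCA5 (2.13, SE 0.60, edgeR adjusted p = 0.00949) and Them4 lower (-1.17, SE 0.43, edgeR adjusted p = 0.0355), beside 27.9% of all genes. In the deletion experiment, medians of AC132362.1, Gm5773, Gm9125 and Tdpoz5 were 6.6, 14.1, 4.14 and 1.85 CPM in wild type of replicate 1, and 0 in deletion embryos of both replicates. These are values near the floor: in the same order, 3, 3, 5 and 7 of the 8 wild-type embryos of replicate 1 were at or under 3 counts. Of the 50-base words of Tdpoz5, 100% also occurred in transcripts of other genes. Wild-type medians in replicate 2 were 2.57, 0, 2.03 and 0 CPM, so Gm5773 and Tdpoz5 also had low medians there. Spop, the distant relative with a known role in ubiquitination, was present in all 116 embryos and gave 0.29 (SE 0.16, edgeR adjusted p = 0.234) for anti-SMARCA5 against IgG. After maternal deletion Spop was called higher (0.88, SE 0.26, edgeR adjusted p = 0.00338). Spopl, its closest paralogue, gave 0.09 (SE 0.44, edgeR adjusted p = 0.905) for anti-SMARCA5 against IgG.

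**Figure D5:**
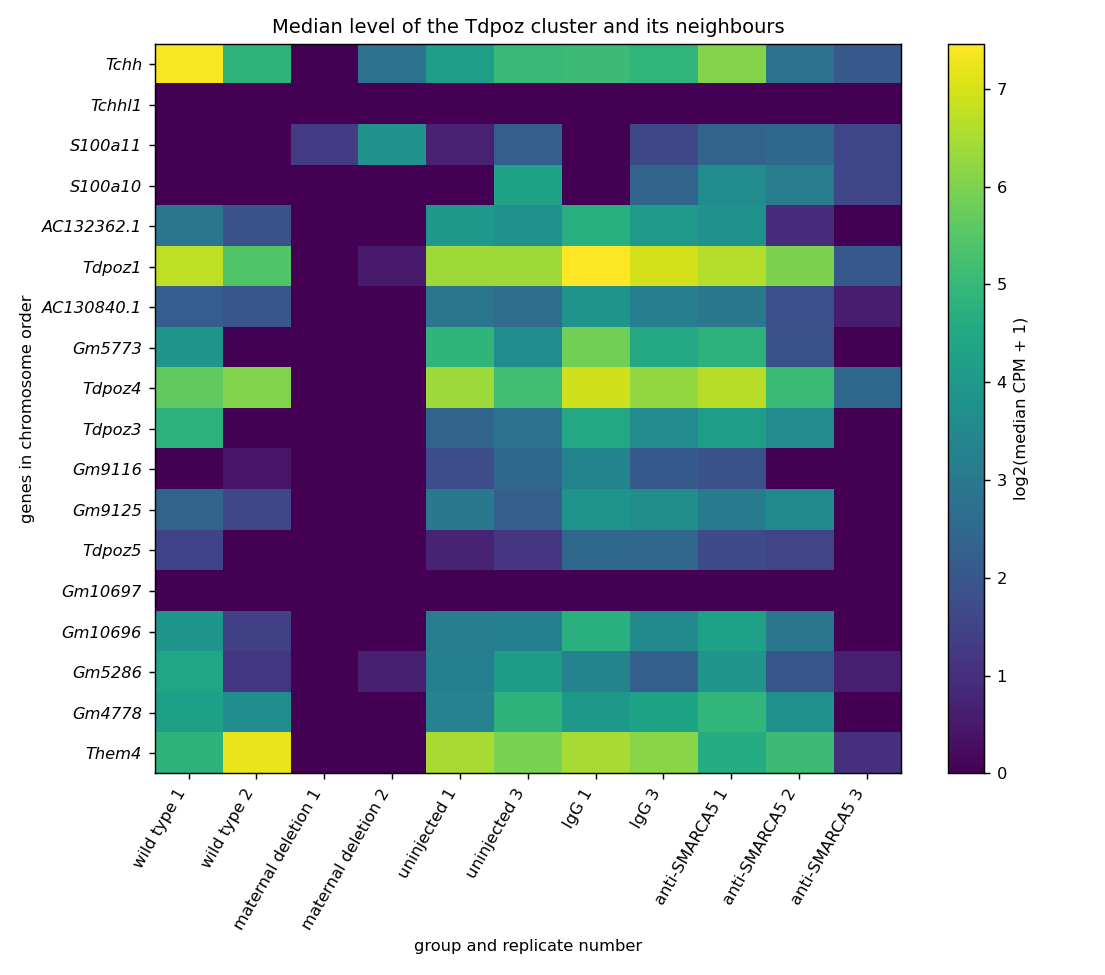
Median level, as log2(median CPM + 1), of the Tdpoz cluster and its neighbours in chromosome order, by group and replicate number. Tdpoz1 and Tdpoz4 are the brightest rows of the cluster, and the columns for maternal deletion and for anti-SMARCA5 replicate 3 are dark for the cluster and also for Tchh and Them4 at its edges.

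Most neighbours of Zfp352 were silent or nearly so in these embryos. Of 5 genes on each side, Elavl2, which encodes a neuronal-type RNA-binding protein, was the only 1 tested, at 0.64 (SE 0.32, edgeR adjusted p = 0.188) for anti-SMARCA5 against IgG. Elavl2 was called higher with anti-SMARCA5 against uninjected embryos (1.40, SE 0.32, edgeR adjusted p = 0.0025), beside 27.9% of all genes called. It was called lower in wild-type replicate 2 than in replicate 1 (-2.50, SE 0.35, edgeR adjusted p = 3.87e-06), beside 17.0% called lower. Dmrta1, Gm12609, Gm12610, Gm12668, 4930577H14Rik and Izumo3 were above 3 counts in no kept embryo. Zfp353, at the RefSeq position of the pseudogene Zfp353-ps, had 16.2 to 67.3 CPM in all 8 wild-type embryos of replicate 1 and was above 3 counts in 5 of 14 in replicate 2. Against uninjected embryos it was called higher with anti-SMARCA5, at 2.74 (SE 0.88, edgeR adjusted p = 0.0189), and against IgG it gave 0.79 (SE 0.75, edgeR adjusted p = 0.493).

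From embryo to embryo within a pool the members varied together. After subtraction of each pool's mean log2(CPM + 1), Pearson's r over the 66 TrimAway embryos was 0.86 for Tdpoz1 and Tdpoz4, 0.77 for Tdpoz1 and Zfp352 and 0.62 for Tdpoz1 and Tdpoz3. The lowest was 0.49, for Tdpoz3 and Tdpoz4. Over the 50 embryos of the deletion experiment the 6 pairs ranged from 0.50 to 0.78. These are descriptions: the points of a pool share plates and lanes, and depth differs within it.

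The genes most like the mean of the 4 members over the TrimAway embryos, of 10443 others, were B020004J07Rik (r = 0.90), Fgf1 (0.89), Gm13078 (0.88), Arg2 (0.87) and Gm12800 (0.86). B020004J07Rik, Gm13078 and Gm12800 are on chromosome 4, Fgf1 encodes a fibroblast growth factor, and Arg2 encodes a mitochondrial arginase. B020004J07Rik, Gm13078 and Arg2 also belong to the 2-cell list described next. In the deletion experiment their r was 0.71, 0.67, 0.74, 0.49 and 0.67. Of the genes in and beside the cluster, the flanking Gm10696 came nearest, at 0.78, and it is itself a relative of the Tdpoz genes, 81.0% identical to Tdpoz1. Between Tdpoz1 and Tdpoz5 the nearest was Gm5773, at 0.70, and the flanking Tchh and Them4 had 0.42 and 0.46.

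Other genes of the 2-cell stage were taken from a list of markers, of which 31 were in the tables. For anti-SMARCA5 against IgG 27 were tested and 0 called by edgeR over all embryos (beside 3.03% of all genes, or 317), with a median log2 fold change of -0.33 against 0.04 over all tested genes. Within replicate 1, 0 of 28 were called, beside 0.857% of all genes. Within replicate 3 it was 12 of 27 lower, beside 9.54%, and 1 higher, beside 6.97% (median -1.83 against -0.08). Their summed level was 169 to 1371 CPM (median 435) in anti-SMARCA5 and 237 to 5957 CPM (median 3194) in IgG embryos of replicate 3. The 3 with the highest mean in uninjected embryos were Sp110, Obox6 and Dppa2. Within replicate 3, Sp110, which encodes a nuclear body protein, fell by 2.76 (SE 0.57, edgeR adjusted p = 0.00861), and Dppa2, a chromatin factor acting upstream of 2-cell genes, fell by 1.35 (SE 0.39, edgeR adjusted p = 0.0276). Obox6, an oocyte-type homeobox gene, gave -1.80 (SE 0.71, edgeR adjusted p = 0.0762).

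Markers of other cells and stages were summed in the same way. Sperm genes summed to at most 22.7 CPM in any kept embryo, cumulus and granulosa genes to at most 248 CPM and genes of later stages to at most 1156 CPM. The cumulus and granulosa sum was 0 to 248 CPM (median 72.4) in wild type, with medians of 13.8 and 101 CPM in replicates 1 and 2, and 0 to 126 CPM (median 17.3) after maternal deletion. Only 1 of its 10 genes was tested there, and it was called lower (-2.73). Of these genes Foxl2, Inhba and Inha were at 0 in all wild-type embryos, and Ptx3 and Inha in all maternal deletion embryos. The 4 sperm genes summed to 0 to 4.91 CPM (median 0) in wild type, with Tnp1 and Tnp2 at 0, and to 0 to 22.7 CPM (median 1.82) after deletion, with Tnp1 at 0. The part of these cells in the results was not tested.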

How the data were processed

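The deposited values are raw read counts per gene, whole numbers in 1 column per well. Per the submitters' processing notes, reads were trimmed with Trim Galore 0.6.5 and cutadapt 2.3 and aligned with HISAT2 2.1.0 to GRCm38, and how multiply mapped reads were counted is not given in the sources used here. Without molecular identifiers, reads are not independent molecules. Lines of the same gene ID were summed (25965 lines, 25900 genes), and 19 embryo libraries under 100000 counts were left out. No libraries of a group were identical, and the lowest chi-square per degree of freedom between 2 of them was 4.53.

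Comparisons used edgeR 4.0.16 (TMM, filterByExpr, robust quasi-likelihood test) on all genes, with Benjamini-Hochberg adjustment over all genes and a threshold of 0.05, checked on simulated counts. The members and gene lists were chosen with earlier results of these data known. The genes named were the 4 members, Smarca5, Trim21, the Tdpoz cluster with 5 genes on each side, 5 genes on each side of Zfp352, Zfp353, Spop, Spopl, the 5 genes most like the members, and 3 of the 2-cell list. Gdf9 and the cumulus and sperm genes at 0 were named after their values were seen. Comparisons within replicates and the difference between them were added after the data had been seen. The replicate block pairs groups of the same replicate number, although each injected embryo received a single antibody. As a check, the difference between 2 replicate means of log2(CPM + 1) was taken in each group and correlated between groups across the tested genes. Replicates 1 and 2 were used in the first experiment and 1 and 3 in the second. The correlations were 0.535 (deletion and wild type), 0.591 (anti-SMARCA5 and IgG), 0.0764 (anti-SMARCA5 and uninjected) and 0.426 (IgG and uninjected). Identities came from global alignment with biopython 1.88. Alternatives were DESeq2 1.42.0, library totals, no filter, other depth limits, the replicate block and leaving out replicates. Libraries that stood apart from others of their label were also left out. Single libraries far from their pool were left out as well, chosen after the levels had been seen.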

Additional observations from a re-analysis of the deposited data

Results flagged for a closer look

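In 8 of 28 sets of 5 to 10 embryos the highest value stood far from the rest. Chance gives about 1 in 20 for independent, normally distributed values, which CPM of correlated genes are not, and well A10 alone gave 3 of the 8. In IgG replicate 1, well A10 had 639 CPM of Tdpoz1 (next 263), 331 CPM of Tdpoz3 (next 39.4) and 652 CPM of Zfp352 (next 392). In IgG replicate 3, well A03 had 364 CPM of Tdpoz1 (next 167) and 56.5 CPM of Tdpoz3 (next 23.1). In anti-SMARCA5 replicate 3, well B05 had 44.6 CPM of Tdpoz1 (next 10.7) and 518 CPM of Smarca5, and well E05 had 9.46 CPM of Tdpoz3 (next 3.89), from 9 counts. In uninjected replicate 3, well E04 had 48.8 CPM of Tdpoz3 (next 6.7).

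The 6 IgG libraries of replicate 2, left out at 8884 to 34050 counts, still held 22 counts of Tdpoz1, 8 of Tdpoz3, 6 of Tdpoz4 and 32 of Zfp352 in 118240. The 3 wells without an embryo held 1 count of Tdpoz4 and 0 of the others in 3151.

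With all libraries, AC132362.1 was the only 1 of the cluster's genes and the members whose effect of anti-SMARCA5 against IgG differed between replicates in edgeR (DESeq2 called Tdpoz4), at -5.41 for replicate 3 minus replicate 1 (SE 1.17, edgeR adjusted p = 0.0212). No anti-SMARCA5 embryo of replicate 3 had more than 3 counts of it, so the size depends on the fit.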

How the results depend on the processing

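Of 321 recomputed log2 fold changes of the members, 278 kept their direction and side of the threshold (for the deletion comparison, moved by less than 1 SD of wild type), 27 passed the threshold only in the alternative, 5 lost it, 10 changed sign and 1 moved. The causes were not tested. The replicate block, which pairs the groups by replicate number, called Tdpoz1 (-1.96), Tdpoz3 (-1.93) and Tdpoz4 (-1.48) for anti-SMARCA5 against IgG. It turned Tdpoz1 (-0.56) and Tdpoz4 (-0.48) against uninjected, and changed no other call of a member. Against uninjected, Tdpoz1 was -0.14 with library totals. Leaving out replicates gave -0.18 to 0.61 for Tdpoz1, -0.55 to 2.24 for Tdpoz3 and -0.60 to 1.36 for Zfp352 in that comparison (Tdpoz1 was -0.002 without replicate 2), and -5.03 to -1.12 for Tdpoz1 after deletion. For IgG against uninjected, DESeq2 called Tdpoz1 (1.25), and fits with no filter called Tdpoz1 (1.18) and Tdpoz3 (2.59). Between wild-type replicates, Tdpoz1 missed the threshold with library totals (-0.90), no filter (-1.27) or at least 500000 counts (-1.15). There DESeq2 gave -0.02 for Tdpoz4 and called Zfp352 (-1.21), as did the fit without G05 and H05 (-1.54). DESeq2 called Tdpoz4 in the difference between replicates (-3.04) and gave 0.38 for Tdpoz3 within replicate 1. Within replicate 3, no filter lost Tdpoz1 (-3.52) and called Tdpoz3 (-3.01), as did DESeq2 (-2.95).

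Genes called also moved. For anti-SMARCA5 against IgG, 317 became 1029 with DESeq2, 64 with library totals, 3010 with no filter, 623 with every library, 150 with at least 500000 counts, 2691 with the block, 521 without well C02, and 0 to 591 without a replicate (with 0, 1210 genes had an unadjusted p under 0.05 in edgeR). For deletion, 4825 became 10416 with no filter and 2801 to 3879 without a replicate, and against uninjected 2999 became 6184 and 1 to 2921. For IgG against uninjected, 0 by edgeR (1440 at an unadjusted p under 0.05) became 207 with DESeq2, 881 with no filter and 0 to 1 without a replicate. Between wild-type replicates, 2693 became 812 with at least 500000 counts. Between uninjected replicates, 69 became 396 with DESeq2, 26 with library totals, 815 with no filter and 128 with every library. For the difference between replicates, 40 became 301 with DESeq2 and 136 with no filter. Within replicate 1, 90 became 877, 12, 555, 59 and 5 with DESeq2, library totals, no filter, every library and at least 500000 counts, and within replicate 3, 1576 became 2669 with DESeq2. Library totals moved the median of all genes from 0.13 to -0.29 against uninjected and from 0.03 to -0.23 for IgG. They moved the calls against uninjected from 1885 higher and 1114 lower to 409 and 1874.

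Libraries far from their pool were left out 1 at a time, chosen after their levels had been seen. With the block, anti-SMARCA5 against IgG gave Tdpoz1 -1.68, -1.84, -2.30 and -1.84 without A10, A03, B05 and E05. Tdpoz3 was called without A03, B05 and E05 (-1.75, -1.87 and -2.16) but not without A10, and Tdpoz4 without A10 and A03 (-1.46 and -1.44) but not without B05 or E05. Genes called were then 3111, 2347, 2669 and 2394, and without the block 665, 148, 280 and 172. Against uninjected, Tdpoz3 passed without E04 (1.97). Within replicate 1, Tdpoz3 was 0.36 without A10, with 744 genes called. Within replicate 3, Tdpoz1 missed the threshold (-3.30) and Tdpoz3 passed (-4.16) without E05, Tdpoz3 failed the filter without A03, and 926 and 924 genes were called without A03 and E05. In the difference between replicates, Tdpoz4 (-3.20) and Zfp352 (-2.63) passed without A10, and Tdpoz1 (-4.42) and Tdpoz4 (-3.37) without B05, with 163 and 205 genes called. Between uninjected replicates, 23 genes were called without E04.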
